A study of Homo sapiens with 54 samples.

Results

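The immediate early transcription factors are represented here by 10 genes, EGR1, EGR3, FOS, FOSB, JUN, JUNB, JUND, IER2, DUSP1 and ATF3, taken by a list of names; the list was drawn up with earlier results of these data known. All 10 were found among the 19225 genes and other transcripts measured, and all 10 reached 1 read per 1000000 (CPM) in at least 3 of the 54 libraries. RNA was sequenced from 3 human prostate cancer cell lines: LNCaP, from a lymph node metastasis; C4-2, an LNCaP derivative that grows in castrated hosts; and 22Rv1, from a relapsed xenograft. Each line was given ethanol as the vehicle, 17-beta-estradiol (E2, 100 nM), the estrogen receptor beta ligand OSU-ERb-12 (OSU, 100 nM), or the antiandrogen enzalutamide (Enza, 1 µM). In the last 2 groups Enza was combined with either E2 or OSU at the same doses. The exposure was 12 h in every group, in medium with 10% fetal bovine serum, and every sample carries the genotype label WT. There were 3 libraries in each of the 18 groups, biological triplicates per the labels, and n = 3 per group holds for every value below. The lines differ in their dependence on androgen, and each is 1 particular genetic background. In the groups given OSU with Enza the treatment label writes WT where the others write OSU-ERb-12, so their content rests on that reading.

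Immediate early genes are switched on within minutes of a growth factor, serum or stress signal, without new protein synthesis, through MAP kinases that act on serum response factor with its ELK partners and on CREB. Their transcripts are short-lived. EGR1 and EGR3 are zinc finger factors. FOS and FOSB proteins pair with JUN, JUNB or JUND to form AP-1, ATF3 is a stress-induced partner of the JUN proteins, IER2 is a small nuclear regulator, and DUSP1 is not a transcription factor but the phosphatase that inactivates the MAP kinases. JUND is known as the JUN protein that is present also in resting cells. In prostate cells AP-1 and EGR1 are known for their part in growth and androgen responses.

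The deposited values decoded to 32819568 to 52417050 reads per library, so that 1 read was worth 0.0204 to 0.0323 CPM. Known androgen-induced genes responded in 22Rv1: FKBP5, a chaperone, changed by 2.22 ± 0.05 with E2 and -0.28 ± 0.05 with Enza, and KLK2, a kallikrein protease, by 1.15 ± 0.06 and -0.76 ± 0.06 (log2 difference ± SE). ESR2, which encodes estrogen receptor beta, lay between 1.22 and 3.08 CPM in all libraries. Of 8 luminal prostate markers all 8 were measured in each line, with KLK3 down to 4.34 CPM in 22Rv1 against at least 385 CPM in LNCaP, while summed fibroblast markers (4 of 5 measured) reached 21.8 CPM in LNCaP and 4.88 CPM in 22Rv1, the 1 basal marker measured of 3 reached 1.77 CPM, the 1 endothelial marker measured of 3 reached 18.7 CPM in LNCaP (16.2 to 18.7 with vehicle, 10.0 to 10.8 with E2) and 0.144 CPM in 22Rv1, and leukocyte markers were not analysed here. The part of these marker levels in the members' results was not tested. Libraries that stand apart in earlier results are C4-2 vehicle 1 (whose cell line tag reads RV1 while its title reads C4-2), C4-2 E2 3 and 22Rv1 vehicle 3 (0.149% and 0.196% of reads in mitochondrial ribosomal RNA, the highest 2 of all libraries), and 22Rv1 OSU+Enza 2 (14.8% of reads in small RNAs, against 7.81 to 12.2% in the other 22Rv1 libraries). Where leaving them out ended a call, the value without them is given beside it. KLK3 was at 1358 CPM or more in every C4-2 library, C4-2 vehicle 1 included, and at 22.3 CPM or less in 22Rv1. The RNA of C4-2 vehicle 1 is therefore not that of 22Rv1, and its title was followed. In bulk RNA, fewer cells with a transcript and less of it per cell cannot be told apart.

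The results turn on 22Rv1, where EGR1, EGR3, FOS and FOSB were far above the other lines and fell with either agent. The 150 bases before the RefSeq start (GRCh38.p14) are shown for 3 of them, since they moved together, and for JUN and ATF3, which moved together in another comparison. Capitals mark 4 motifs searched on both strands: the CArG box, which serum response factor binds; TGACG, the core of the CREB and ATF site (CGTCA on the other strand); TGACATCA, a JUN and ATF site; and TATAAA, the TATA box. In the printed stretches no 2 marked motifs overlap. EGR1 (chr5:138465329-138465478, plus strand), FOS (chr14:75278678-75278827, plus), FOSB (chr19:45467846-45467995, plus), JUN (chr1:58784048-58784197, minus) and ATF3 (chr1:212565257-212565406, plus) read, 5′ to 3′:
EGR1: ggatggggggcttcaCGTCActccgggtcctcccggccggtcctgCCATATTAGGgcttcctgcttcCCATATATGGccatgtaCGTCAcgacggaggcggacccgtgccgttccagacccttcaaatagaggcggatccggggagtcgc
FOS: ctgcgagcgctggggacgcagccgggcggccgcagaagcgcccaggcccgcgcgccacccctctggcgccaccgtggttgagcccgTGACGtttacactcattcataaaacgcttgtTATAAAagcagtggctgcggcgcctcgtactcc
FOSB: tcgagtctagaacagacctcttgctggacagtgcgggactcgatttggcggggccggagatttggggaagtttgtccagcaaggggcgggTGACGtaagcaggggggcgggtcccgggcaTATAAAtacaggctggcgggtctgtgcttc
JUN: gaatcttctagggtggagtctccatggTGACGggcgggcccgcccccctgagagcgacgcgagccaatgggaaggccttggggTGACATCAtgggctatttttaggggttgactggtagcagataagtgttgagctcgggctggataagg
ATF3: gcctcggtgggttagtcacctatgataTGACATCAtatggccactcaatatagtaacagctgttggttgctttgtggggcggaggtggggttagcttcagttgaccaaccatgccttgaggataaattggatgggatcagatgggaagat
Over the 250 bases before the start, EGR1 was the single member of 9 with an entry to hold a CArG box, at -105 to -96 and -83 to -74, against 1.16% of 35116 promoters. TGACG stood in 8 of the 9, against 21.2%. TGACATCA stood in JUN (-67 to -60) and ATF3 (-123 to -116), against 2.37%, and TATAAA in 5 of the 9, against 10.7%. In ATF3 the TATAAA lay in another promoter entry of the gene, at -230 to -225, and not before the printed start. Members were counted over any of their entries, while the shares are per promoter. The half-site of the estrogen receptor, AGGTCA, was found in ATF3 (12.1% of all promoters). A match is a description of letters and not a bound site.

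**Figure D1:**
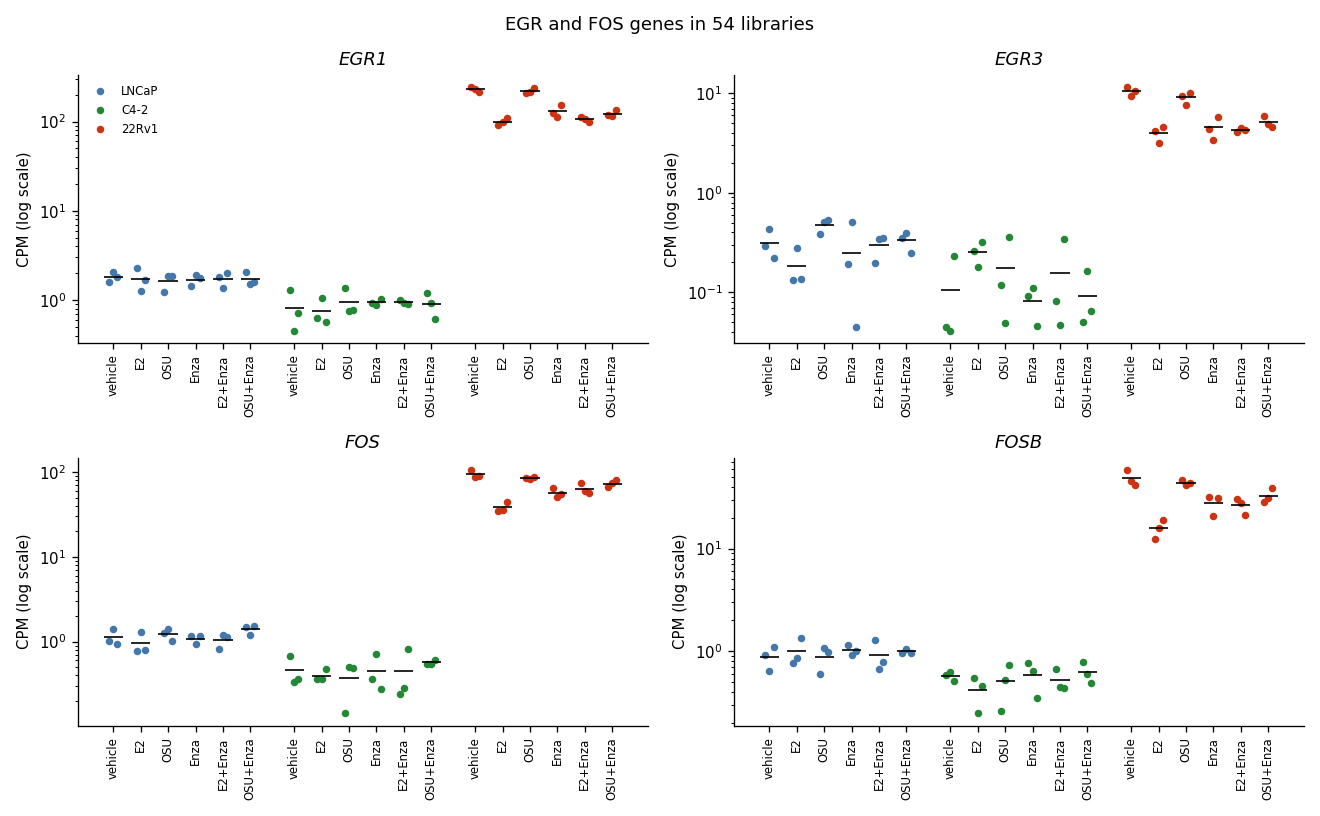
Levels of EGR1, EGR3, FOS and FOSB in CPM (log axis) in each of 54 libraries, by cell line and treatment; points are libraries and bars are means of 3. All 22Rv1 libraries lie above all LNCaP and C4-2 libraries, and within 22Rv1 the vehicle and OSU groups lie highest.

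In vehicle, 22Rv1 cells held EGR and FOS transcripts at levels far above those of the other 2 lines. EGR1 was at 245, 230.4 and 216 CPM in the 3 vehicle libraries of 22Rv1, 1.59, 2.06 and 1.83 CPM in LNCaP and 1.29, 0.455 and 0.721 CPM in C4-2. FOS was at 107, 88.2 and 89.8 CPM in 22Rv1, 1.01, 1.40 and 0.946 in LNCaP and 0.679, 0.331 and 0.361 in C4-2. FOSB was at 58.8, 45.6 and 41.8 CPM in 22Rv1, 0.911, 0.637 and 1.10 in LNCaP and 0.588, 0.620 and 0.515 in C4-2. For these genes the lowest of all 22Rv1 libraries lay far above the highest library of another line, EGR1 at 92.1 to 245 CPM over the 18 libraries of 22Rv1 against 1.23 to 2.27 in LNCaP. EGR3 was at 11.6, 9.41 and 10.5 CPM in 22Rv1, 0.290, 0.433 and 0.220 in LNCaP and 0.0452, 0.0413 and 0.232 in C4-2, the last from 2 to 9 reads. On the log2(CPM + 0.5) scale, which understates differences of low genes, 22Rv1 exceeded LNCaP by 6.64 ± 0.17 for EGR1, 5.88 ± 0.17 for FOS, 5.15 ± 0.19 for FOSB and 3.76 ± 0.18 for EGR3 (adjusted p at most 6.87e-25). EGR3 was below the level filter (1 CPM in 3 libraries) in LNCaP and entered this fit through its 22Rv1 level. It had to differ, and its p-value supports nothing.

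The other 6 members were expressed in all 3 lines. IER2 stood at 154, 157 and 153 CPM in 22Rv1 vehicle libraries, 61.5, 60.5 and 61.3 in LNCaP and 62.8, 59.7 and 56.7 in C4-2, and was higher in 22Rv1 than in LNCaP by 1.33 ± 0.04 (adjusted p = 2.48e-31). JUND went the other way, at 74.6, 72.4 and 77.1 CPM in 22Rv1, 96.6, 106 and 123 in LNCaP and 144, 139 and 134 in C4-2. Its difference of 22Rv1 from C4-2 was -0.89 ± 0.07 (adjusted p = 6.53e-17). JUN (82.0 ± 6.14, 62.2 ± 1.01 and 71.5 ± 4.53 CPM in LNCaP, C4-2 and 22Rv1, mean ± SD), JUNB (46.9 ± 2.35, 53.4 ± 3.09 and 63.4 ± 0.676), DUSP1 (32.7 ± 2.72, 23.6 ± 0.423 and 20.6 ± 1.77) and ATF3 (27.9 ± 1.65, 21.9 ± 1.10 and 28.8 ± 1.37) differed by less than 2-fold between lines. DUSP1 was lower in 22Rv1 than in C4-2 by the main scaling (-0.20) and at 0.05 (adjusted p = 0.507) when scaled to total reads, which shifted the median of all genes by 0.232 in that comparison. Without the libraries that stand apart it was at -0.15 (adjusted p = 0.0739).

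Between lines, 9 of 10 members differed for 22Rv1 against LNCaP (6 higher, 3 lower), 10 of 10 for 22Rv1 against C4-2 (8 higher, 2 lower) and 8 of 10 for C4-2 against LNCaP (2 higher, 6 lower). Among all genes tested the share called was 83.3% for 22Rv1 against LNCaP (40.4% higher, 43% lower), 84.7% for 22Rv1 against C4-2 (41.5% and 43.3%) and 66.7% for C4-2 against LNCaP (34% and 32.7%). The members' counts are thus near the background of these comparisons, and their sizes are not counted in it. EGR3, FOS and FOSB did not pass the level filter in C4-2, nor EGR3 in LNCaP, and they entered this fit of all libraries through their 22Rv1 levels. They had to differ in the comparisons with 22Rv1, and the counts that hold them support nothing. Among members that passed the filter in both lines, C4-2 differed from its parent LNCaP by -0.86 ± 0.17 (adjusted p = 1.63e-05) in EGR1 and by -0.46 ± 0.07 in DUSP1. The value for EGR1 ranged from -1.27 to -0.45 over other settings. EGR3, below the filter in both lines, was at -0.43 in the same comparison. Without the libraries that stand apart EGR3 was at -0.36 (adjusted p = 0.119) and not called.

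Per kilobase of exon, the order of the members differed between lines. In 22Rv1 vehicle cells EGR1 led with 73.4 CPM per kilobase, followed by IER2 (50.2), JUND (38.7), JUNB (34.6), FOS (29.8) and JUN (19.7). DUSP1 (10.2), FOSB (8.78), ATF3 (7.21) and EGR3 (2.09) followed. In LNCaP vehicle cells JUND led with 56.3 CPM per kilobase and JUNB had 25.7, while EGR1 had 0.583 and FOS 0.352. FOS and FOSB were thus at low levels in LNCaP and C4-2, and the 3 JUN genes were present in all 3 lines.

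**Figure D2:**
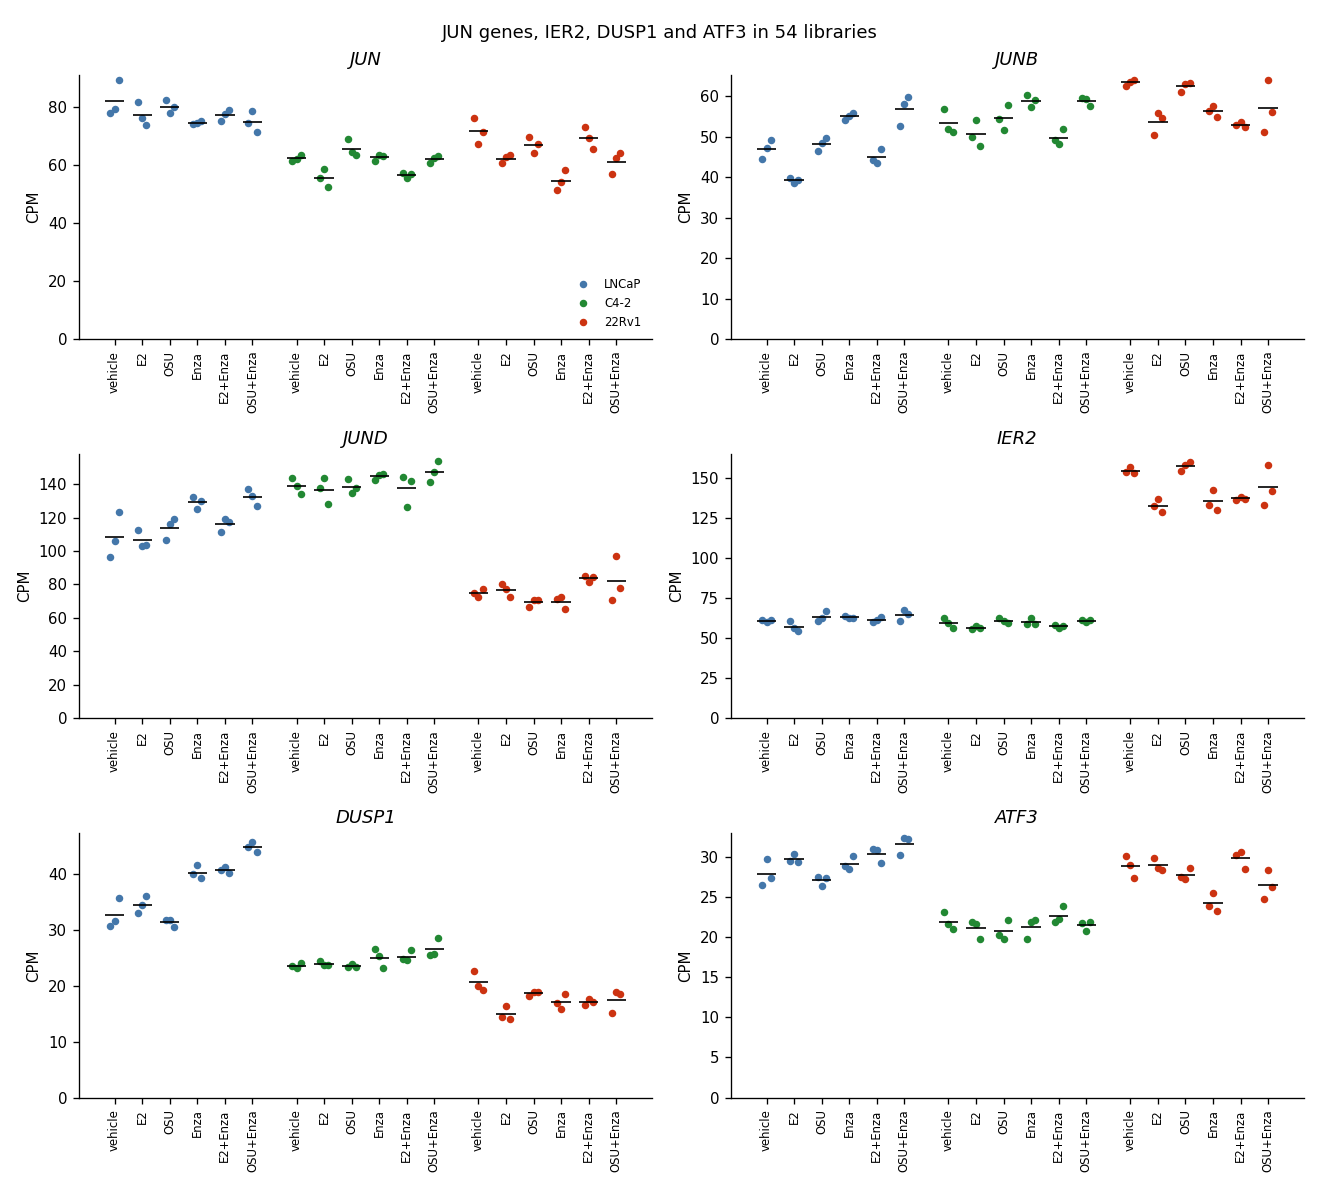
Levels of JUN, JUNB, JUND, IER2, DUSP1 and ATF3 in CPM (linear axis from 0) in each of 54 libraries, by cell line and treatment; points are libraries and bars are means of 3. Treatment groups of a line differ little beside the EGR and FOS genes, with 22Rv1 E2 libraries lower in JUNB and IER2 and LNCaP libraries with Enza higher in DUSP1.

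E2 lowered 8 of the 10 members in 22Rv1 and raised 0, against 10.6% of all genes lower and 27.7% changed in either direction. EGR1 fell from 245, 230.4 and 216 CPM to 92.1, 98.5 and 110.2 CPM, or -1.20 ± 0.08 (adjusted p = 2.43e-12). FOS fell from 107, 88.2 and 89.8 CPM to 35.2, 35.3 and 44.8 CPM, or -1.29 ± 0.09 (adjusted p = 1.55e-11). FOSB fell from 58.8, 45.6 and 41.8 CPM to 12.4, 15.9 and 19.1 CPM, or -1.60 ± 0.15 (adjusted p = 2.15e-09). In each of these the highest E2 library lay below the lowest vehicle library. The share of all genes whose libraries separate in this way was not determined for any comparison, so such separations are descriptions only. EGR3 fell from 11.6, 9.41 and 10.5 CPM to 4.16, 3.17 and 4.58 CPM, or -1.31 ± 0.14 (adjusted p = 5.23e-08). The 4 genes were left at 32.4% (FOSB), 37.8% (EGR3), 40.6% (FOS) and 43.5% (EGR1) of the vehicle mean.

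The other members fell less with E2 or were not called. DUSP1 fell from 22.6, 20.1 and 19.2 CPM to 14.4, 16.4 and 14.0 CPM, or -0.45 ± 0.08 (adjusted p = 0.000225). JUNB fell by 0.24 ± 0.06 (adjusted p = 0.0033) from 62.6, 63.6 and 64.0 CPM to 50.4, 55.9 and 54.7 CPM, and IER2 by 0.22 ± 0.05 (adjusted p = 0.00204) from 154, 157 and 153 CPM to 133, 137 and 129 CPM. In these 3 genes the groups did not overlap, again a description only. JUN changed by -0.20 ± 0.06 (adjusted p = 0.0115) and was not called without vehicle 1 (-0.15, adjusted p = 0.0954) or E2 1 (-0.18, adjusted p = 0.0562). JUND (0.04 ± 0.07) and ATF3 (0.01 ± 0.06) did not pass, with 95% intervals of -0.11 to 0.18 and -0.12 to 0.13. The members' median was -0.34, against 0.03 over all genes tested.

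Enza also lowered members in 22Rv1, in a comparison that moved few genes. Of the 10 members 6 were lower and 0 higher, against 0.491% of all genes lower and 0.659% changed in either direction. EGR1 was at 126, 112 and 153 CPM with Enza, a fall of 0.83 ± 0.08 (adjusted p = 8.99e-08) from vehicle. EGR3 was at 4.43, 3.41 and 5.79 CPM, or -1.15 ± 0.14 (adjusted p = 9.70e-06). FOS was at 65.8, 50.5 and 55.2 CPM, or -0.73 ± 0.09 (adjusted p = 2.38e-05). All 3 Enza libraries lay below all 3 vehicle libraries in these genes, a description without the share over all genes. FOSB was at 31.8, 20.8 and 31.0 CPM (-0.81 ± 0.15, adjusted p = 0.00268), and was not called without vehicle 1 (-0.66, adjusted p = 0.0594) or Enza 2 (-0.61, adjusted p = 0.0657). JUN was at 51.2, 54.1 and 58.3 CPM (-0.39 ± 0.06, adjusted p = 0.00019), with all 3 libraries below all 3 vehicle libraries. ATF3 was at 23.9, 25.5 and 23.3 CPM (-0.25 ± 0.06, adjusted p = 0.0468), close to the threshold, and leaving out either vehicle 1, vehicle 2, Enza 1 or Enza 3 ended the call (adjusted p up to 0.351).

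Of the remaining members, DUSP1 (-0.27 ± 0.08), IER2 (-0.19 ± 0.05), JUNB (-0.17 ± 0.06) and JUND (-0.10 ± 0.07) were not called with Enza; at an unadjusted p under 0.05, 9 of 10 members would be. The members' median was -0.33, against 0.02 over all genes. The E2 and Enza comparisons share the same 3 vehicle libraries, so their values are given side by side and not as 2 independent results. Vehicle 1 was the highest of these 3 libraries in 7 members (EGR1, EGR3, FOS, FOSB, JUN, DUSP1 and ATF3). Without it the differences in EGR1 were -1.15 with E2 and -0.79 with Enza, and those in FOS -1.21 and -0.64.

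**Figure D3:**
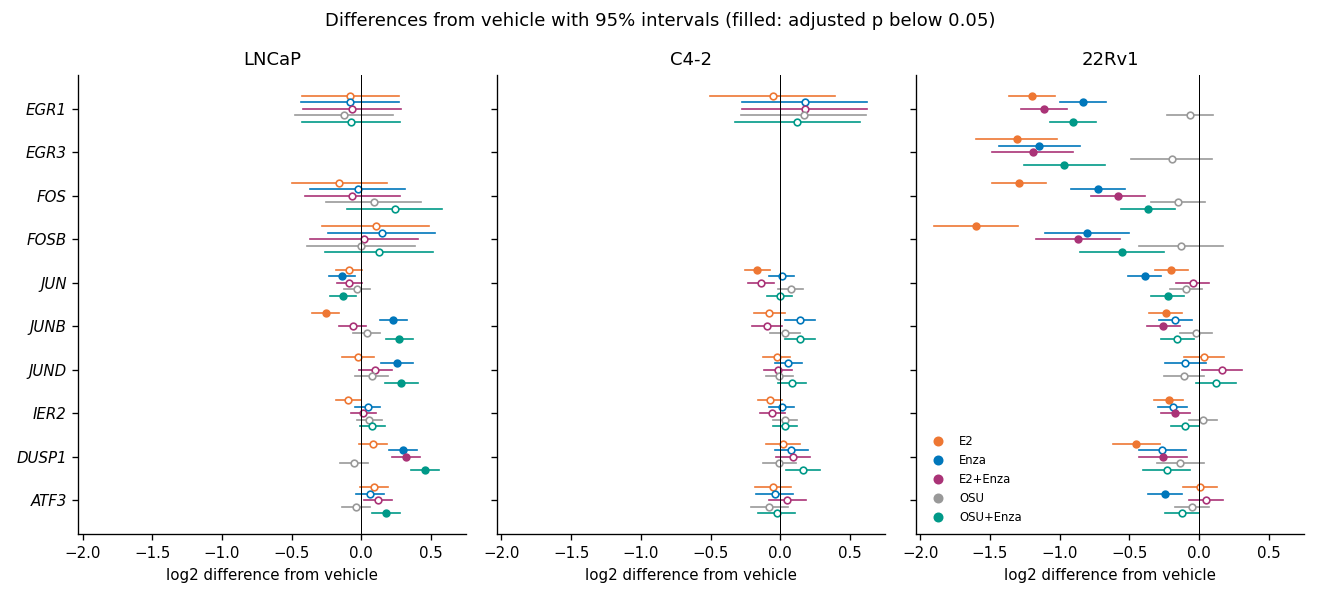
Log2 differences from vehicle with 95% intervals for each member under 5 treatments, 1 panel per line; filled points have an adjusted p below 0.05, and genes below the level filter of a line have no point. In 22Rv1 the EGR and FOS genes lie left of 0 in each treatment with E2 or Enza, and OSU alone has no filled point.

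OSU at the dose of E2 gave no called change in any member. In 22Rv1 EGR1 was at 209.8, 214 and 237 CPM with OSU, FOS at 86.1, 82.8 and 86.6 CPM, FOSB at 46.8, 41.8 and 43.5 CPM and EGR3 at 9.51, 7.71 and 10.2 CPM. Every one of these lies above every E2 and every Enza library of its gene. All 3 OSU libraries were also below all 3 vehicle libraries in FOS (-0.15 ± 0.09), DUSP1 (-0.14 ± 0.08) and JUND (-0.11 ± 0.07), and none of these passed. The share of all genes that separate in this way was not determined, so the separation of these genes supports no effect of OSU. The members' median was -0.10, against 0.01 over all genes. With limma, 0 of the 10 members were called for OSU in 22Rv1 (0% of all genes), 0 at an unadjusted p under 0.05, and 0 with voom weights. The intervals of the OSU difference were -0.23 to 0.10 for EGR1, -0.34 to 0.04 for FOS, -0.43 to 0.17 for FOSB and -0.49 to 0.09 for EGR3. In LNCaP (0 of 9 called, 0.014% of all genes), in C4-2 (0 of 7, 0%) and in the mean over the 3 lines (0 of 10, 0%) the count was also 0 at either threshold.

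E2 was compared with OSU directly, both at 100 nM, with no vehicle library in the difference. In 22Rv1, 7 of 10 members were lower with E2 than with OSU and 0 higher (8.81% of all genes lower, 22% in all). The differences were -1.13 ± 0.08 for EGR1, -1.11 ± 0.14 for EGR3, -1.15 ± 0.09 for FOS and -1.47 ± 0.15 for FOSB (adjusted p at most 9.78e-07). DUSP1 (-0.31 ± 0.08), IER2 (-0.25 ± 0.05) and JUNB (-0.22 ± 0.06) were lower too, the last not without E2 1 (-0.17, adjusted p = 0.0699). This 1 pair of compounds was compared in 3 lines, with p-values adjusted over all genes of a line. It gave 4 of 9 members in LNCaP (2 higher, 2 lower; 12.8% and 11.8% of all genes, 24.6% in all) and 1 of 7, lower, in C4-2 (3% lower, 5.95% in all). In LNCaP the difference of E2 from OSU was -0.29 ± 0.05 (adjusted p = 1.82e-05) for JUNB and -0.15 ± 0.04 (adjusted p = 0.0118) for IER2, the latter not called without E2 3 or OSU 3. DUSP1 and ATF3 were higher there by 0.14 and 0.13 (adjusted p = 0.0427 and 0.0454). The DUSP1 call ended without any 1 library but E2 1, and the ATF3 call without any 1 of the 6. In C4-2 the difference for JUN was -0.24 ± 0.04 (adjusted p = 0.000591).

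With both agents present, the falls did not add. Under E2 with Enza, 7 of 10 members were below vehicle in 22Rv1 and 0 above (5.72% of all genes lower, 13.8% in either direction). EGR1 was at 112, 107 and 99.3 CPM, or -1.11 ± 0.08 from vehicle, where the sum of the 2 single effects would be -2.03. FOS was at 73.4, 59.6 and 57.3 CPM, or -0.58 ± 0.09, against a sum of -2.02. FOSB was at 30.5, 27.9 and 21.1 CPM, or -0.87 ± 0.15, against -2.41. In FOS all 3 libraries with both agents lay above all 3 with E2 alone. EGR3 was at 4.10, 4.51 and 4.30 CPM, or -1.19 ± 0.14, against -2.46. JUNB (-0.26 ± 0.06, adjusted p = 0.00346), IER2 (-0.17 ± 0.05, adjusted p = 0.0225) and DUSP1 (-0.26 ± 0.08, adjusted p = 0.0353) were lower too, and the calls of IER2 and DUSP1 ended without vehicle 2, E2+Enza 1, E2+Enza 3 or vehicle 1 (for the last, adjusted p = 0.0716 and 0.212).

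The interaction, the E2 effect with Enza less the E2 effect without it, was above 0 for 5 of the 10 members in 22Rv1 and below 0 for none. Of all genes 0.424% were called and 0.135% were higher. The values were 1.54 ± 0.21 (adjusted p = 0.000131) for FOSB, 1.44 ± 0.13 (adjusted p = 2.75e-07) for FOS, 1.26 ± 0.20 (adjusted p = 0.00103) for EGR3, 0.92 ± 0.11 (adjusted p = 3.39e-05) for EGR1 and 0.54 ± 0.08 (adjusted p = 0.000522) for JUN. These 5 kept the call without each of the 12 libraries in turn. DUSP1 (0.46 ± 0.12, adjusted p = 0.0813), ATF3 (0.29 ± 0.08), IER2 (0.24 ± 0.07), JUND (0.22 ± 0.10) and JUNB (0.15 ± 0.08) did not pass. The interaction uses the same vehicle libraries as both single comparisons, and with the opposite sign.

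**Figure D4:**
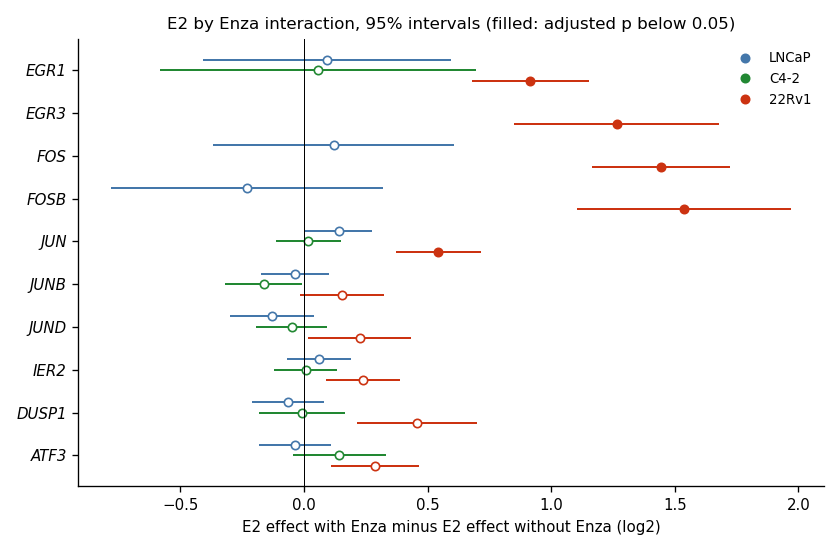
E2 by Enza interaction on the log2 scale with 95% intervals for each member in each line; filled points have an adjusted p below 0.05. The 5 filled points are EGR1, EGR3, FOS, FOSB and JUN in 22Rv1, and no member has a filled point in LNCaP or C4-2.

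Comparisons among treated cells alone hold no vehicle library. Enza added to E2 raised FOS by 0.72 ± 0.09 (adjusted p = 2.49e-05) and FOSB by 0.73 ± 0.15 (adjusted p = 0.00469), 2 of 10 members against 0.135% of all genes higher and 1.2% in all. The call for FOSB ended without E2 1 (0.57, adjusted p = 0.0971) or E2+Enza 1 (0.62, adjusted p = 0.0776). EGR1 (0.09 ± 0.08) and EGR3 (0.12 ± 0.14) stayed near the level of E2 alone, with intervals of -0.08 to 0.25 and -0.17 to 0.41. The EGR genes and the FOS genes thus gave different values in this comparison, and a test between the genes was not made.

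E2 added to Enza changed 4 of 10 members in 22Rv1 (3 higher, 1 lower; 4.11% and 3.83% of all genes, 7.94% in all). JUN rose from 51.2, 54.1 and 58.3 CPM to 73.0, 69.4 and 65.4 CPM, or 0.34 ± 0.06 (adjusted p = 0.000103). ATF3 rose from 23.9, 25.5 and 23.3 CPM to 30.2, 30.6 and 28.5 CPM, or 0.29 ± 0.06 (adjusted p = 0.00114). In both genes every library with both agents lay above every library with Enza alone. JUND rose by 0.26 ± 0.07 (adjusted p = 0.0158), a call lost without Enza 3, E2+Enza 1 or E2+Enza 3. EGR1 changed by -0.28 ± 0.08 (adjusted p = 0.0243), and by -0.16 (adjusted p = 0.248) without Enza 3, its highest Enza library; leaving out Enza 1, E2+Enza 2 or E2+Enza 3 ended the call as well. FOS (0.15 ± 0.09), FOSB (-0.06 ± 0.15) and EGR3 (-0.04 ± 0.14) did not pass. E2 therefore lowered FOS and FOSB where Enza was absent, and no change in them was called where it was present.

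OSU with Enza also lowered the EGR and FOS genes in 22Rv1. EGR1 was at 117, 116 and 135 CPM (-0.91 ± 0.08, adjusted p = 9.21e-09) and EGR3 at 5.95, 4.90 and 4.56 CPM (-0.97 ± 0.14, adjusted p = 8.61e-05). FOS (66.4, 73.5 and 80.3 CPM, -0.37 ± 0.09, adjusted p = 0.037), FOSB (-0.56 ± 0.15, adjusted p = 0.0436) and JUN (-0.23 ± 0.06, adjusted p = 0.0351) completed the 5 of 10 members called, all lower, against 1.33% of all genes lower and 1.99% in either direction. The FOS libraries all lay above those with Enza alone, and this difference was not tested. The last 3 calls were close to the threshold: FOS lost it without vehicle 1, vehicle 2, vehicle 3, OSU+Enza 1 or OSU+Enza 2, FOSB without vehicle 1, vehicle 2, OSU+Enza 1 or OSU+Enza 2 and JUN without vehicle 1, vehicle 3, OSU+Enza 1 or OSU+Enza 2. Without the libraries that stand apart (vehicle 3 and OSU+Enza 2) 2 members were called, EGR1 and EGR3, and FOS was at -0.41 (adjusted p = 0.123). FOSB was then at -0.62 (adjusted p = 0.119) and JUN at -0.24 (adjusted p = 0.127). Library OSU+Enza 2 had the highest JUNB, JUND, IER2, DUSP1 and ATF3 of its group, and the part of its small RNA share in this was not tested.

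The order of the 6 group means in 22Rv1 was not the same for all members. EGR1 means ran from vehicle (230.4 ± 14.3 CPM, SD) and OSU (220.1 ± 14.5), whose libraries overlapped, to Enza (130.2 ± 20.5), OSU+Enza (123 ± 10.5), E2+Enza (106 ± 6.53) and E2 (100.3 ± 9.18). Its libraries did not overlap between OSU and Enza or between OSU+Enza and E2+Enza. FOS ran from vehicle (94.8 ± 10.2 CPM) and OSU (85.2 ± 2.07) through OSU+Enza (73.4 ± 6.93), E2+Enza (63.5 ± 8.71) and Enza (57.2 ± 7.81) to E2 (38.5 ± 5.49). E2 alone stood clear of its neighbour there, as it did for FOSB (15.8 ± 3.38 CPM). JUN was lowest with Enza (54.5 ± 3.59 CPM), as was ATF3 (24.2 ± 1.14), and the mean of JUND was highest with E2+Enza (83.8 ± 2.06), where its libraries overlapped those of OSU+Enza. Of 50 pairs of neighbouring groups over the 10 members, the libraries overlapped in 40 in 22Rv1, 45 in LNCaP and 48 in C4-2. The groups were ordered by these same means, and the share over all genes was not determined. These counts therefore only describe the members and support no difference between lines.

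In LNCaP fewer members changed, by smaller amounts and mostly upward with Enza. EGR1 lay at 1.23 to 2.27 CPM over all 18 LNCaP libraries (45 to 101 reads), FOS at 0.785 to 1.53, FOSB at 0.601 to 1.36 and EGR3 at 0.0444 to 0.536. EGR3 did not pass the level filter, and 9 members were tested. E2 changed 1 of 9, JUNB (11.6% of all genes lower, 24.9% in either direction), from 44.4, 47.3 and 49.1 CPM to 39.8, 38.7 and 39.2 CPM, or -0.26 ± 0.05 (adjusted p = 0.000117). The intervals were -0.43 to 0.27 for EGR1 and -0.50 to 0.18 for FOS, which do not reach the falls seen in 22Rv1 on this scale. The 0.5 CPM added before taking logs shrinks a fall at these low levels, so the sizes cannot be compared directly between the lines. In CPM, the E2 means in LNCaP were 94.9% of the vehicle mean for EGR1 and 85.4% for FOS.

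Enza changed 4 of 9 members in LNCaP, 3 of them upward (9.79% of all genes higher, 10.6% lower, 20.4% in all). DUSP1 rose from 30.7, 31.6 and 35.8 CPM to 40.0, 41.6 and 39.3 CPM, or 0.30 ± 0.05 (adjusted p = 4.33e-05). JUNB rose to 54.2, 55.1 and 55.8 CPM (0.23 ± 0.05, adjusted p = 0.000695) and JUND to 132, 125 and 129.9 CPM from 96.6, 106 and 123 CPM (0.25 ± 0.06, adjusted p = 0.00183). JUN changed by -0.14 ± 0.05 (adjusted p = 0.0322), a call that ended without vehicle 3, Enza 1, Enza 2 or Enza 3, and without vehicle 3 it was at -0.08 (adjusted p = 0.215). JUNB thus went down with E2 and up with Enza, and with both agents it lay at 44.4, 43.4 and 47.0 CPM, a difference of -0.29 ± 0.05 (adjusted p = 2.03e-05) from Enza alone and of 0.19 ± 0.05 (adjusted p = 0.00452) from E2 alone.

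DUSP1 was higher than in vehicle also with E2 and Enza together in LNCaP, at 40.8, 41.4 and 40.3 CPM, or 0.32 ± 0.05 (adjusted p = 6.28e-05), the 1 of 9 members called (4.52% of all genes higher, 7.42% in all). Over E2 alone DUSP1 and JUNB made 2 of 9, higher (6.27% of all genes higher, 13.5% in all), and over Enza alone JUNB made 1 of 9, lower (10.9% lower, 23.1% in all). OSU with Enza gave 5 of 9 (4 higher, 1 lower; 14.5% and 15.2% of all genes, 29.7% in all), with DUSP1 at 44.8, 45.8 and 44.0 CPM (0.46 ± 0.05, adjusted p = 5.23e-08), JUND 0.29 ± 0.06, JUNB 0.27 ± 0.05, ATF3 0.18 ± 0.05 and JUN -0.13 ± 0.05. JUN lost its call without vehicle 3, OSU+Enza 1 or OSU+Enza 3. Leaving out vehicle 3 took JUN to -0.07 (adjusted p = 0.212), and leaving out vehicle 1 took ATF3 to 0.14 (adjusted p = 0.0547). The interaction of E2 and Enza was called for 0 of 9 members (9.05% of all genes, 1 member at an unadjusted p under 0.05, 0 with voom weights).

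In C4-2 few changes of members were called. EGR1 lay at 0.455 to 1.35 CPM over the 18 libraries, FOS at 0.142 to 0.809, FOSB at 0.246 to 0.775 and EGR3 at 0.0413 to 0.357, and the last 3 did not pass the filter. Of the 7 members tested, E2 changed JUN, from 61.4, 61.8 and 63.3 CPM to 55.5, 58.5 and 52.3 CPM (-0.17 ± 0.04, adjusted p = 0.0214, against 3.11% of all genes lower and 5.82% in all). Without E2 3, which has high mitochondrial ribosomal RNA, it was at -0.12 (adjusted p = 0.175), without vehicle 1 as well at -0.13 (adjusted p = 0.254), and the call also ended without any of the 3 vehicle libraries or E2 1. Enza changed 0 of 7 (8.44% of all genes), with 1 member, JUNB (0.14 ± 0.05), at an unadjusted p under 0.05. E2 with Enza gave 0 of 7 against vehicle (0.0784%, 1 unadjusted), OSU with Enza 0 of 7 (7.39%, 2 unadjusted), Enza added to E2 gave 0 of 7 (3.46%, 0 unadjusted) and the interaction 0 of 7 (1.5%, 1 unadjusted). E2 added to Enza lowered JUNB (-0.24 ± 0.05, adjusted p = 0.0032) and JUN (-0.15 ± 0.04, adjusted p = 0.0381), 2 of 7 against 2.94% of all genes lower and 7.38% in all. The call for JUN ended without any 1 of the 6 libraries.

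Whether the response to an agent differed between lines was tested in 1 fit of all 54 libraries. The E2 response differed over the 3 lines for 5 of 10 members (EGR1, EGR3, FOS, FOSB and DUSP1, 29.1% of all genes), and was lower in 22Rv1 than in either other line for each (4.39% of all genes lower and 11.2% in all against LNCaP, 9.42% and 28.8% against C4-2). EGR3 in LNCaP, and EGR3, FOS and FOSB in C4-2, were in this fit only through their 22Rv1 levels, so their differences from those lines are descriptions and the count supports nothing. DUSP1, which is well expressed in each line, differed by -0.53 ± 0.09 (adjusted p = 3.35e-05) from LNCaP and -0.47 ± 0.09 (adjusted p = 0.000265) from C4-2. EGR1 differed by -1.12 ± 0.24 (adjusted p = 0.000724) and -1.14 ± 0.24 (adjusted p = 0.000534). FOS differed by -1.14 ± 0.24 (adjusted p = 0.000755) from LNCaP. With voom weights, which give low counts less weight, 2 of the 5 were called against LNCaP (EGR1 and DUSP1) and 2 against C4-2 (EGR3 and DUSP1), and FOS was at -1.09 (adjusted p = 0.148) from LNCaP. With 0.1 in place of 0.5 CPM added, 3 were called against LNCaP. The EGR and FOS genes are near the 0.5 CPM added before taking logs in LNCaP and C4-2, where a fall has little room to show, and the values depend on that number.

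The Enza response differed over the 3 lines for 10 of 10 members (13.3% of all genes), and for 6 without 22Rv1 vehicle 1. EGR3 in LNCaP, and EGR3, FOS and FOSB in C4-2, were in this fit only through their 22Rv1 levels. The counts that hold them, here and against either line, therefore support nothing. Relative to LNCaP it was lower in 22Rv1 for 8 of 10 (1.93% of all genes lower, 4.49% in all), among them DUSP1 (-0.57 ± 0.09, adjusted p = 2.26e-05), JUNB (-0.40 ± 0.08, adjusted p = 0.000319), JUND (-0.35 ± 0.10, adjusted p = 0.0188) and ATF3 (-0.31 ± 0.08, adjusted p = 0.00746), and also EGR3, which did not pass the filter in LNCaP. Leaving out 22Rv1 Enza 2 left 5 of these calls. JUND lost its call without LNCaP vehicle 1, LNCaP Enza 1, 22Rv1 vehicle 3 or 22Rv1 Enza 3. EGR1 and FOS, which passed the filter in LNCaP, were not called against LNCaP. FOSB was called at -0.95, but not with voom weights (adjusted p = 0.463) or with 0.1 CPM added (adjusted p = 0.122). Relative to C4-2 the Enza response was lower in 22Rv1 for 8 of 10 (3.69% lower, 11.3% in all), with JUN at -0.40 ± 0.07 (adjusted p = 0.000187) and EGR1 at -1.01 ± 0.24 (adjusted p = 0.00566). With voom weights EGR1 was at -1.17 and not called (adjusted p = 0.114). EGR3, FOS and FOSB are among these 8 and did not pass the filter in C4-2; none of the 3 was called with voom weights or with 0.1 CPM added, and FOSB was at -0.91 (adjusted p = 0.0572) without the libraries that stand apart. The count ran from 4 to 9 when single libraries were left out, with 4 without 22Rv1 vehicle 1 and 5 without 22Rv1 vehicle 2, 22Rv1 Enza 2, C4-2 vehicle 2, C4-2 vehicle 3 or C4-2 Enza 2, and was 4 with voom weights. JUNB and DUSP1, which were higher with Enza in LNCaP, were on the lower side in 22Rv1, where neither was called by itself.

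Other immediate early genes moved in both directions with E2 in 22Rv1. Of 30 listed, 25 were tested, and E2 changed 9 (5 higher, 4 lower), against 27.7% of all genes, with a median of -0.05. NFKBIZ, a regulator of NF-kappaB targets, fell (-1.07 ± 0.07), as did the matrix proteins CCN2 (-0.71 ± 0.13) and CCN1 (-0.57 ± 0.10), both known serum response factor and YAP targets, while the factor KLF4 rose (0.56 ± 0.09). Enza changed 1 of 25, CCN1 (-0.41 ± 0.10, adjusted p = 0.0481), and NR4A1 was at -0.38 ± 0.10 (adjusted p = 0.0922). The interaction was called for 0 of 25 with limma (7 at an unadjusted p under 0.05), with CCN1 at 0.56 ± 0.14 and CCN2 at 0.70 ± 0.18. Vehicle 22Rv1 cells differed from LNCaP in 22 of 25 (16 higher), near the 83.3% of all genes, including PPP1R15A (2.88 ± 0.10), CCN2 (2.87 ± 0.12) and IER5 (1.56 ± 0.07), with FOSL2 lower (-1.65 ± 0.05).

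In LNCaP, E2 changed 10 of 21 other immediate early genes tested (6 higher, 4 lower), against 24.9% of all genes, led by the AP-1 factor FOSL2 (1.18 ± 0.04), the orphan receptor NR4A1 (1.28 ± 0.06), BTG2 (-0.45 ± 0.04) and KLF4 (0.66 ± 0.07). Enza raised 7 of 21 and lowered 0, against 9.79% of all genes higher and 20.4% in all, among them MCL1 (0.21 ± 0.03), RHOB (0.25 ± 0.04), PPP1R15A (0.50 ± 0.11) and BTG2 (0.17 ± 0.04). In C4-2, E2 changed 4 of 21 (2 higher, 2 lower, 5.82% of all genes), with NR4A1 (0.84 ± 0.06) and FOSL2 (0.49 ± 0.05) higher, and Enza 2 of 21 (8.44% of all genes), BTG2 (0.22 ± 0.04) and ARC (-0.37 ± 0.08). Here the interaction of E2 and Enza was below 0, for 6 of 21 in LNCaP (9.05% of all genes called) and 3 of 21 in C4-2 (1.5%), and above 0 for none. FOSL2 was at -0.84 ± 0.06 in LNCaP and -0.47 ± 0.07 in C4-2, and NR4A1 at -0.81 ± 0.08 and -0.56 ± 0.08.

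Of 14 feedback genes that MAP kinase signalling induces, all were tested and all 14 differed between 22Rv1 and LNCaP in vehicle cells (10 higher), where 83.3% of all genes did (40.4% higher), led by the ETS factors ETV4 (5.22 ± 0.14) and ETV5 (4.96 ± 0.15), the ERK phosphatase DUSP6 (4.41 ± 0.15) and the inhibitor SPRY2 (3.16 ± 0.13). E2 changed 5 of 14 in 22Rv1 (3 higher, 2 lower): the EGF receptor inhibitor ERRFI1 rose (1.21 ± 0.06), PHLDA1 rose (0.67 ± 0.09), and EPHA2 (-0.20 ± 0.06) and DUSP6 (-0.30 ± 0.09) fell. Enza changed 0 of 14 with limma (1 at an unadjusted p under 0.05), with DUSP2, ETV5 and SPRY2 at -0.15 ± 0.09, 0.14 ± 0.07 and 0.13 ± 0.07. The interaction was called for 0 of 14 (4 unadjusted), with ERRFI1 at -0.31 ± 0.08.

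Among 21 upstream regulators, E2 changed 12 in 22Rv1 (8 higher, 4 lower). EGFR, the EGF receptor, fell by 0.28 ± 0.05, its partner ERBB2 rose by 0.20 ± 0.04, the kinase RPS6KA3 fell by 0.24 ± 0.05 and the serum response factor partner ELK4 rose by 0.23 ± 0.05. Enza changed 0 of 21 (4 unadjusted) and the interaction 0 of 21 (3 unadjusted). Of the AP-1 partners and EGR co-repressors, 12 of 13 were in the table and 11 tested. E2 raised 2, MAFF (0.31 ± 0.09) and ATF2 (0.17 ± 0.06), and Enza changed 0 (1 unadjusted). NAB2, an EGR co-repressor and EGR target, was higher in 22Rv1 than in LNCaP in vehicle cells by 1.35 ± 0.07.

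Of 12 amino acid stress genes, E2 raised 4 in 22Rv1 (DDIT4 0.47 ± 0.08, DDIT3 0.18 ± 0.06, CHAC1 0.43 ± 0.14 and ASNS 0.15 ± 0.05) and Enza changed 0 (5 unadjusted). E2 added to Enza changed 4 (3 higher), against 7.94% of all genes in either direction and 4.11% higher. DDIT3, a partner of ATF3 in the stress response, was at 0.27 ± 0.06 and SESN2 at 0.22 ± 0.06, next to the rise of ATF3. Of 10 heat shock genes, E2 raised 4 (HSPA8 0.24 ± 0.06, DNAJB1 0.17 ± 0.05, HSPD1 0.18 ± 0.06 and HSPE1 0.21 ± 0.07), and Enza changed 0 (0 unadjusted). For the related lists in 22Rv1 the background was 27.7% of genes in either direction for E2, with 10.6% lower. It was 0.659% for Enza and 0.424% for the interaction, in either direction.

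Genes with profiles most like a member were sought over the 54 libraries after the mean of each line was removed, as a description only, since libraries of a group share their treatment. For EGR1 the highest Pearson r included MINK1 (0.693), a kinase of the JNK pathway, MIR9-2HG (0.664), FAM238B (0.652) and SSX3 (0.633). For FOS they included CCN2 (0.670), MUS81 (0.648), MINK1 (0.627) and ANKRD20A5P (0.625). For JUN they included IGLV4-60 (0.605), EMC1 (0.556), RPTOR (0.519) and SNORD77 (0.509). For ATF3 they were CHPF (0.623), the stress factor CEBPB (0.607), IQSEC2 (0.603), HAGH (0.583) and the amino acid transporter chain SLC3A2 (0.580). MIR9-2HG and IGLV4-60 have mean levels of 0.604 and 0.429 CPM, where counting noise is large.

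Places are from RefSeq GRCh38.p14. EGR1 lies on chromosome 5, 138465479 to 138469303, FOS on chromosome 14, 75278828 to 75282230, FOSB on chromosome 19, 45467996 to 45475179, JUN on chromosome 1, 58780791 to 58784047 and ATF3 on chromosome 1, 212565407 to 212620777. JUNB (chromosome 19, 12791486 to 12793315), JUND (chromosome 19, 18279694 to 18281622) and IER2 (chromosome 19, 13150411 to 13154911) share chromosome 19 with FOSB, and DUSP1 (chromosome 5, 172768096 to 172771195) shares chromosome 5 with EGR1. Reads were counted over genes, so no exon or isoform can be told from another. JUNB overlaps HOOK2 and EGR3 overlaps an uncharacterised transcript, and since the strand setting of the counting is not given in the sources used here, their counts are less certain than those of the other 8.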

How the data were processed

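Total RNA was sequenced in 54 libraries, and groups were taken from titles and treatment labels. Per the submitters' processing notes the tools were FastQC, Trimmomatic, featureCounts and edgeR on hg38, and the design text names Rsubread; for the versions the sources used here give nothing. The deposited values are a score, named CPM by the authors: each is the log2 of a CPM to which 0.5 reads had been added, rescaled by 1 constant in every library to a column sum of 1000000. Whole reads were recovered from it for 100% of values (tolerance 0.01), 32819568 to 52417050 per library; of 19225 rows 18917 matched RefSeq symbols.

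CPM used the authors' effective library sizes. Differences were tested by limma 3.58.1 in R 4.3.3 (trended variance, log2 of CPM + 0.5). Genes entered a fit if 3 or more of its libraries reached 1 CPM, and p-values were adjusted by Benjamini-Hochberg over all genes tested and called at 0.05, two-sided. The 18 libraries of a line made 1 fit, with 12 residual degrees of freedom; for contrasts between lines a single model took all 54. Values after ± are SDs for CPM and SEs for log2 differences. Levels per kilobase used the union of GENCODE exons. Because the unit is a score, no count model was run; voom weights on the recovered reads were an alternative, beside pseudocounts of 0.1 and 2, no filter, TMM, total read scaling, cyclic loess, a replicate block, 1 fit of all libraries, and leaving out libraries.

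All 10 members are named, with up to 4 genes of smallest p of each related list described, the 5 genes most like EGR1, FOS, JUN and ATF3, and a few reference genes of the treatments (KLK3, KLK2, FKBP5 and ESR2 among them); some genes that the rule names are not reported here. The members and lists were chosen with earlier results of these data known. On simulated data with the design of E2 against vehicle in 22Rv1 (14812 genes), 73.0% of genes changed by 0.5, 96.8% by 1 and 100% by 2 (log2) were called, and 0.0753% of unchanged genes. The simulated reads of each gene were drawn independently, without shifts of whole libraries. These shares therefore do not give the rate of false calls in the real libraries.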

Additional observations from a re-analysis of the deposited data

Results flagged for a closer look

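Differences between lines in the response to an agent were called for these members, each tested as a difference of responses in the fit of all 54 libraries (log2, 22Rv1 less the other line). For E2 against LNCaP they were EGR1 -1.12, EGR3 -1.06, FOS -1.14, FOSB -1.70 and DUSP1 -0.53 (adjusted p at most 0.00258). For E2 against C4-2 they were EGR1 -1.14, EGR3 -1.63, FOS -1.22, FOSB -1.36 and DUSP1 -0.47 (at most 0.000534). All lie on the side of a lower response in 22Rv1. EGR3 in LNCaP, and EGR3, FOS and FOSB in C4-2, did not pass the level filter there and were in the fit through 22Rv1, so that no response of their own could be measured in those lines.

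For Enza against LNCaP they were EGR3 -0.99, FOSB -0.95, JUN -0.25, JUNB -0.40, JUND -0.35, IER2 -0.24, DUSP1 -0.57 and ATF3 -0.31 (adjusted p at most 0.0273). For Enza against C4-2 they were EGR1 -1.01, EGR3 -1.10, FOS -0.72, FOSB -0.79, JUN -0.40, JUNB -0.31, IER2 -0.20 and DUSP1 -0.35 (at most 0.0462). The same limit holds for EGR3 against LNCaP and for EGR3, FOS and FOSB against C4-2. The last 3 were not called with voom weights or with 0.1 CPM added, nor were EGR3 and FOSB against LNCaP. EGR1 against C4-2 was not called with voom weights. Several of the Enza calls end when 1 library is left out.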

How the results depend on the processing

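Of 119 called member values, 78 kept direction and call in every alternative; over 2004 checks 183 lost the call and 1 changed sign, DUSP1 in vehicle 22Rv1 against C4-2 (0.045 with total read scaling, which shifted the median of all genes by -0.10, 0.12 and 0.23 in the 3 vehicle comparisons). Of 347 counts of called members under other settings, 317 lay within 1.5 times the main count. The cause of the others was not tested. With a pseudocount of 0.1 the E2 response of 22Rv1 against LNCaP had 3 members (5 in the main analysis) and the Enza response against C4-2 had 5 (8). With voom weights the E2 response had 3 over the lines (5), 2 against LNCaP (5) and 2 against C4-2 (5), and the Enza response 6 over the lines (10) and 4 against C4-2 (8). OSU+Enza in 22Rv1 (5) had 2 without the filter, 3 with TMM and 3 with cyclic loess, and 2 when the libraries that stand apart were left out. With TMM, total read scaling, cyclic loess and those libraries left out, Enza in C4-2 had 1, 1, 1 and 1 (0), and OSU+Enza in C4-2 had 1, 2, 1 and 1 (0). E2 in C4-2 had 0 with total read scaling, with cyclic loess and without those libraries (1). Total read scaling gave 3 for E2 in LNCaP (1) and 4 for E2+Enza against E2 in LNCaP (2). TMM, total read scaling and cyclic loess gave 2 for E2+Enza against Enza in LNCaP (1). With all 54 libraries in the fit, E2+Enza against Enza in C4-2 had 1 (2).

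Replicate numbers did not pair the libraries: correlations of deviations from group means ran from -0.51 to 0.43, and in 0 of 15 group pairs per line were all above 0.1. With a replicate block, E2+Enza against Enza had 2 members in LNCaP (1) and 1 in C4-2 (2), and FOS and FOSB lost the Enza call against C4-2 (-0.72 and -0.79).

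Leaving out 1 library at a time, counts ran from 1 to 2 for E2 in LNCaP, 0 to 1 for E2 in C4-2, 7 to 8 for E2 in 22Rv1, 4 to 6 for Enza in 22Rv1, 5 to 7 for E2+Enza and 2 to 5 for OSU+Enza in 22Rv1. They ran from 1 to 2 for E2+Enza in LNCaP, and against Enza from 1 to 2 in LNCaP, 1 to 1 in C4-2 and 2 to 4 in 22Rv1. Against E2 they ran from 1 to 2 in 22Rv1; E2 against OSU from 1 to 3 in LNCaP; the interaction from 0 to 1 in LNCaP and 5 to 6 in 22Rv1; and the Enza response from 6 to 10 over the lines, 5 to 8 against LNCaP and 4 to 9 against C4-2. Over all genes, Enza in 22Rv1 called 98, but 189 with all libraries in the fit, 55 without Enza 2 and 410 without Enza 3. The interaction in 22Rv1 called 63 genes, but 35 without the filter, 152 with all libraries in the fit, 21 without Enza 2 and 350 without Enza 3.

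Depth limits EGR1, EGR3, FOS and FOSB in LNCaP and C4-2, where 2 to 101 reads stood behind a value and folds rest on the added 0.5 CPM.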
